A study of Mus musculus with 6 samples.

Results

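This section describes 6 mouse genes of interleukin 4 and interleukin 13 signalling in the uterus after a single dose of progesterone: the cytokines Il4 and Il13, the receptor chains Il4ra, Il13ra1 and Il13ra2, and the transcription factor Stat6. Their probe sets were those whose single gene symbol in the platform annotation was one of these names. That gave 13 of the 45101 probe sets on the array. Each gene is represented by its brightest probe set, judged by the average of the 6 arrays, and the 6 genes stand among 18193 genes tested. All animals were female mice of mixed background, 8 weeks old, carrying the floxed Gata2 allele (f/f), and no recombinase is named in the labels. They were ovariectomized when 6 weeks old. An injection of sesame oil (100 µl), alone or carrying 1 mg of progesterone, followed 2 weeks later, and the uterus was taken after another 6 h. Each group had 3 one-colour Affymetrix arrays, and the design text speaks of RNA pools of 3 mice. It does not say that every array held its own pool. The p-values therefore rest on how far these arrays lie apart. How much of that spread is technical was not tested. Within the oil group the neutrophil transcript S100a8 ran from 4.34 to 11.82 (log2). The question addressed was how transcripts of the uterus differ 6 h after progesterone.

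Interleukin 4 and interleukin 13 are cytokines of type 2 immunity, made mainly by T helper cells, innate lymphoid cells, mast cells, basophils and eosinophils. Interleukin 4 binds Il4ra, which pairs either with the common gamma chain or with Il13ra1, and interleukin 13 signals through the pair of Il13ra1 and Il4ra. These receptors act through Janus kinases and the transcription factor Stat6. Il13ra2 binds interleukin 13 tightly but has a short cytoplasmic tail, and it is known mainly as a decoy receptor that takes the cytokine out of reach of the signalling pair.

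After progesterone the decoy receptor Il13ra2 was 13-fold higher than after oil, and it was the one gene of the 6 that passed the test (limma, Benjamini-Hochberg adjusted p under 0.05 over all genes). The signalling chain Il4ra was 1.57-fold lower on its brightest probe set. It missed the threshold in the main fit and passed under 3 of 21 alternatives, pairing of the arrays among them. Its other probe sets were not lower, with log2 changes of 0.39 and 0.10. Il13ra1 had a positive log2 change on all 5 of its probe sets, and none of them passed without pairing. The cytokines Il4 and Il13 lay at or close to background in both groups, and Stat6 had a log2 change of -0.09. Over all genes, 11.7% passed the test, 5.92% as higher and 5.83% as lower, so 1 call among 6 genes is to be read beside that share. Since RNA came from whole uterus, a change in a cell type's number and a change in RNA per cell cannot be told apart.

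**Figure D1:**
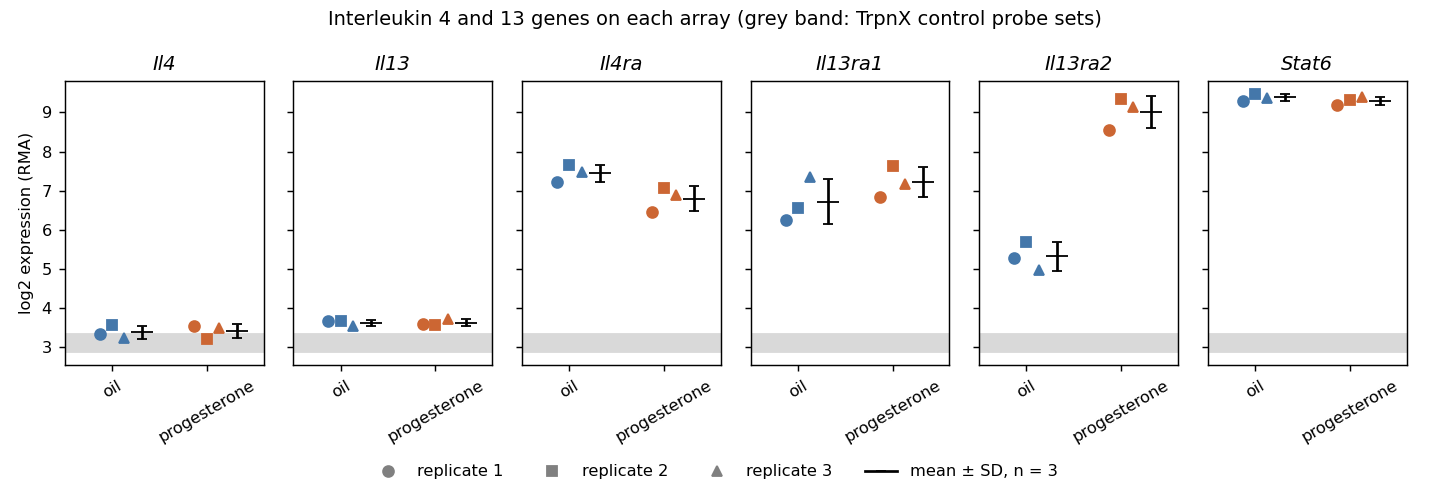
Log2 expression (RMA, vertical axis) of the 6 genes on each of the 3 oil and 3 progesterone arrays, with a symbol per replicate number, the group mean ± SD beside the points and a grey band for the TrpnX control range. Il13ra2 lies between 4.97 and 5.70 with oil and between 8.56 and 9.35 with progesterone, Il4 touches the band, and levels of different genes are not comparable.

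The arrays of the series had medians between 5.51 and 5.53 on the log2 scale. TrpnX controls, bacterial sequences on the array, lay between 2.87 and 3.34 and stand here for background. Markers of uterine stroma, uterine epithelium and myometrium fitted the labelled tissue, with 9 of 9, 9 of 9 and 7 of 7 measured markers above 3.34 on every array. Immune transcripts differed between arrays of 1 group: the neutrophil transcript S100a8 was at 4.92, 4.34 and 11.82 on oil replicates 1 to 3 and at 5.01, 12.02 and 12.48 on progesterone replicates 1 to 3. The liver transcript Alb was at 8.71 on oil replicate 3 and between 3.96 and 4.29 on the other 5 arrays.

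Il4 encodes the cytokine interleukin 4. Its single probe set read 3.35, 3.57 and 3.23 with oil and 3.54, 3.22 and 3.49 with progesterone (log2). On 2 of the 6 arrays, 1 of each group, it was at or below the highest TrpnX level of 3.34, and the groups overlapped. Both group means, 3.38 and 3.42, were above that level by less than the SD of 0.172 in each group, so by the rule set for this purpose Il4 was not at background, but nothing separates it from background beyond the spread. The log2 change was 0.03 (95% confidence interval -0.28 to 0.34, limma adjusted p = 0.918).

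Il13, the cytokine interleukin 13, read 3.67, 3.66 and 3.54 with oil and 3.59, 3.58 and 3.73 with progesterone. All 6 values were between 0.20 and 0.39 above the highest TrpnX level, and the highest and the lowest array differed by 0.19. The groups overlapped, with a log2 change of 0.01 (95% confidence interval -0.21 to 0.23, limma adjusted p = 0.967). With both probe sets this close to background, the intervals describe the array signal and set no firm limit on a change in the transcripts.

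Il4ra is the receptor chain shared by both cytokines. On its brightest probe set (1421034_a_at) it read 7.22, 7.65 and 7.48 with oil and 6.46, 7.06 and 6.88 with progesterone. All 3 progesterone arrays lay below all 3 oil arrays, which holds for 30.4% of all genes in one direction or the other, and the closest arrays of the groups were 0.16 apart. The mean went from 7.45 ± 0.217 to 6.80 ± 0.308 (log2, SD, n = 3 per group), a log2 change of -0.65 ± 0.181 (SE, limma adjusted p = 0.0621). The labels number the replicates in both groups. Across genes, the deviations of same-numbered arrays from their group means correlated at 0.523, 0.141 and 0.636. Oil replicate 2 correlated better with progesterone replicate 1 (0.322), so the pairing is uncertain. The 3 differences between same-numbered arrays were -0.76, -0.59 and -0.60, and with the replicate number as a block the adjusted p was 0.00948, where 7.6% of all genes were called higher and 8.49% lower. With that block 1 of the 6 genes was higher (Il13ra2) and 1 lower (Il4ra).

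The other probe sets of Il4ra did not show this difference. Probe set 1423996_a_at read 4.47, 4.75 and 5.02 with oil and 4.97, 4.97 and 5.47 with progesterone, a log2 change of 0.39 ± 0.187 (SE, limma adjusted p = 0.271 over all probe sets, 0.0561 with the replicate block). Probe set 1447858_x_at had a log2 change of 0.10 (adjusted p = 0.674). With the mean of the 3 probe sets the log2 change of Il4ra was -0.05 (adjusted p = 0.867). The direction for Il4ra therefore holds for 1 probe set, and which transcript forms each probe set detects was not analysed here. On the main probe set replicate 1 was the lowest array within each group. The mean of 9 macrophage markers was lowest on the same arrays, at 6.78 with oil and 6.54 with progesterone, against 7.72 to 8.28 on the other 4. This was not particular to macrophages. Replicate 1 was also lowest within each group for the mast cell, T cell and innate lymphoid, neutrophil, B cell, NK cell, endothelial and stromal lists. It was not so for the remaining lists. The part of these cells in the level of Il4ra was not tested.

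Il13ra1 is the chain that joins Il4ra to form the signalling receptor for interleukin 13. Its brightest probe set read 6.24, 6.57 and 7.36 with oil and 6.85, 7.62 and 7.18 with progesterone. The highest oil array exceeded 2 of the 3 progesterone arrays, so the groups overlapped, and the mean went from 6.72 ± 0.576 to 7.22 ± 0.386 (log2, SD, n = 3 per group). The log2 change was 0.49 ± 0.309 (SE, 95% confidence interval -0.23 to 1.22, limma adjusted p = 0.387, and 0.199 with the replicate block). It was 0.25 without oil replicate 1, 0.29 without progesterone replicate 2 and 0.81 without oil replicate 3.

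The other 4 probe sets of Il13ra1 had positive log2 changes as well, of 0.39, 0.56, 0.91 and 0.12. The largest was that of 1451775_s_at, which read 4.54, 4.35 and 5.61 with oil and 5.20, 5.84 and 6.20 with progesterone (limma adjusted p = 0.181). The smallest was that of 1425625_at, which lay between 2.78 and 3.10 on all arrays and so at background. None of the 5 passed when every probe set was tested on its own, where 8.99% of all probe sets passed. With the replicate block 3 of the 5 passed as higher (adjusted p = 0.0453, 0.0153 and 0.0227), the brightest one not among them, where 6.81% of all probe sets were called higher. Probe sets of a gene are not independent samples of it.

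**Figure D2:**
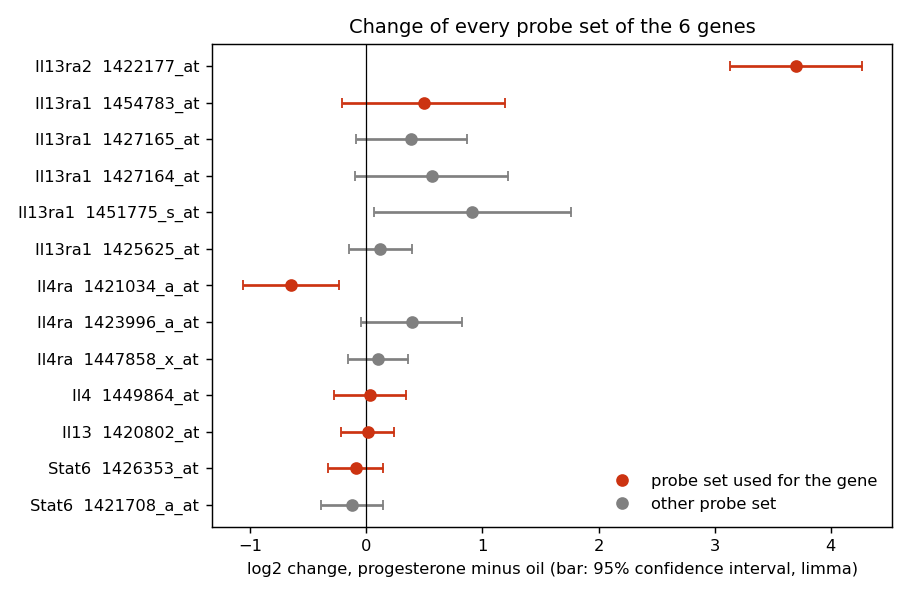
Log2 change from oil to progesterone (horizontal axis) of each of the 13 probe sets, with 95% confidence intervals from limma and the probe set used for a gene in red. Il13ra2 stands at 3.70, the 5 probe sets of Il13ra1 lie between 0.12 and 0.91, and the probe sets of Il4ra lie on both sides of 0, at -0.65, 0.39 and 0.10.

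Il13ra2, the decoy receptor, has 1 probe set. It read 5.29, 5.70 and 4.97 with oil and 8.56, 9.35 and 9.14 with progesterone. The lowest progesterone array was 2.86 above the highest oil array, and the lowest oil array was 1.63 above the highest TrpnX level. The mean went from 5.32 ± 0.366 to 9.02 ± 0.409 (log2, SD, n = 3 per group). The log2 change was 3.70 ± 0.25 (SE, 95% confidence interval 3.11 to 4.28, limma adjusted p = 0.0011), or 13-fold with an interval from 8.63-fold to 19.5-fold. Differences between same-numbered arrays were 3.27, 3.65 and 4.17.

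Among the arrays with little S100a8, progesterone replicate 1, with S100a8 at 5.01, read 8.56, which is 3.06 (log2) above the mean of oil replicates 1 and 2. A fit of only those 3 arrays, chosen after seeing the data, takes the spread from the 2 oil arrays alone and assumes that the 1 progesterone array varies like them. In that fit Il13ra2 did not pass (limma adjusted p = 0.147), and 0 genes did, with 3379 at an unadjusted p under 0.05. With each array left out in turn the log2 change lay between 3.52 and 3.92, and the adjusted p was 0.00952 or lower.

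The promoter windows of the 2 receptors for interleukin 13 are shown because one gene rose and the other did not pass. Each window runs from 250 bases before to 50 bases after the annotated start, from RefSeq (GRCm38.p6), and is written 5′ to 3′ on the gene's own strand. Capitals mark matches to any of 5 motifs searched on both strands: TGTTCT for steroid receptors, the longer inverted repeat of the glucocorticoid and progesterone receptors, AGATAA for GATA factors, TTCNNNGAA for STAT factors, and the Stat6 type, which has 1 more free base in the middle. TGTTCT can overlap the inverted repeat. The first window is chrX:147429143-147429442 on the minus strand and the second chrX:36111858-36112157 on the plus strand.
Il13ra2: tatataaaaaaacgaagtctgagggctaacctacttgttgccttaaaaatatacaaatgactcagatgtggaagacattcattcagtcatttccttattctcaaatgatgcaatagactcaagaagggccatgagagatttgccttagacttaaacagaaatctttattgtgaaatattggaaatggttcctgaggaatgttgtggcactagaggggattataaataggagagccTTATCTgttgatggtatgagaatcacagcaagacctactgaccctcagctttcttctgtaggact
Il13ra1: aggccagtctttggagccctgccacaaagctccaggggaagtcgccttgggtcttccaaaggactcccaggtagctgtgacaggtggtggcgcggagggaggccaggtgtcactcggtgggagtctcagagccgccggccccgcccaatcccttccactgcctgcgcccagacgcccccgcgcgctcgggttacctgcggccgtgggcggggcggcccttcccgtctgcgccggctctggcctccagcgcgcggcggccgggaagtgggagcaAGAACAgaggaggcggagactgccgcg

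The window of Il13ra2 held 1 match, to the GATA motif, as TTATCT on the strand shown, at positions -15 to -10 from the start. AGATAA or its complement was found in 11.2% of the 32851 promoter windows of this length, so a match by itself is common. GATA factors are of interest here because the study concerns Gata2, but a match in letters is not a binding site, and binding was not measured here. None of the other 4 motifs was found in this window. The window of Il13ra1 held AGAACA, the complement of TGTTCT, 24 to 29 bases after the start, a motif seen in 19.0% of all windows. Both windows differ in composition: that of Il13ra2 has 37.7% G and C with 1 CpG, and that of Il13ra1 71.0% with 28 CpG, against medians of 52.7% and 7 over all windows.

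Among the other genes, the windows of Il4ra and Stat6 held no match to any of the 5 motifs. That of Il13 held AGATAA at positions -81 to -76. Il4 has windows for 2 annotated starts. One held TTCACAGGAA, of the Stat6 type, and the other TTCATGGAA, of the STAT type. The Stat6 type was found in 6.95% and the STAT type in 8.30% of all windows.

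Because levels of different probe sets cannot be compared, the receptor chains were set against each other by the difference of their log2 values on each array. Il13ra2 minus Il13ra1 was -0.95, -0.87 and -2.39 with oil and 1.71, 1.73 and 1.96 with progesterone. All progesterone arrays were higher, and the balance between the decoy and the signalling chain differed by 3.20 on the log2 scale (9.21-fold). Il13ra2 minus Il4ra was -1.93, -1.95 and -2.51 with oil and 2.10, 2.29 and 2.26 with progesterone, a difference of 4.35 (20.3-fold), and of 3.75 with the mean of each gene's probe sets. Il13ra1 minus Il4ra went from -0.98, -1.08 and -0.12 to 0.39, 0.56 and 0.30, a difference of 1.14 (2.21-fold), and of 0.55 with those means. In each of these 3 comparisons the arrays of the groups did not overlap, as held for 30.4% of single genes. The share over all pairs of genes was not computed. The groups of Il13ra2 were 2.86 apart, more than the range of Il13ra1 (1.38) or Il4ra (1.19) over the arrays. Its 2 comparisons therefore could not overlap and say nothing further about the signalling chains. The third uses the brightest probe set of Il4ra, whose direction its other probe sets did not share. For each of the 3 comparisons the two-sided exact permutation p was 0.1, and it was 0.1 after adjustment over the 3 pairs. That is the smallest value that 3 arrays against 3 allow, so none could pass 0.05.

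**Figure D3:**
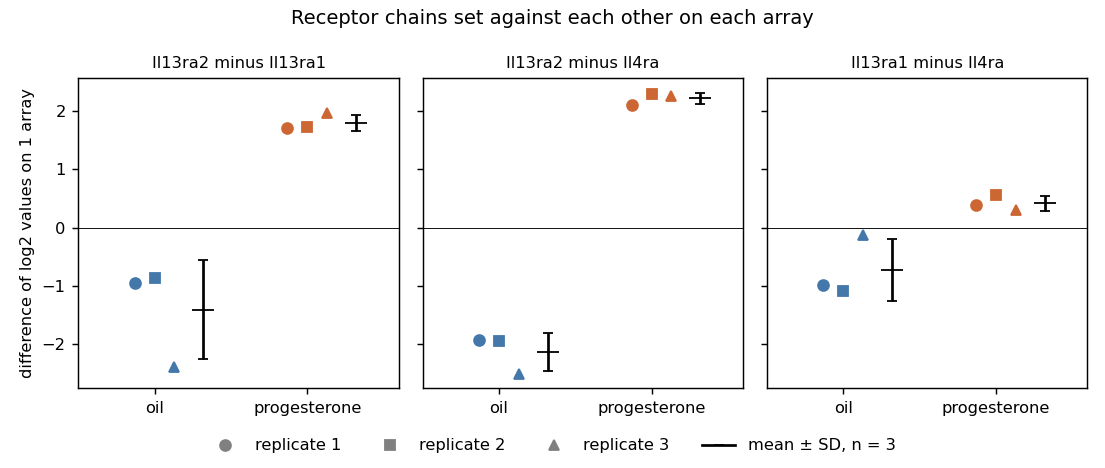
Difference of the log2 values of a pair of receptor genes on each array (vertical axis), for 3 oil and 3 progesterone arrays with the mean ± SD beside them. In each pair the 3 progesterone arrays lie above the 3 oil arrays, by 4.35 on average for Il13ra2 minus Il4ra. The height above or below 0 has no meaning, since the probe sets differ in brightness.

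Stat6, the transcription factor that the receptors activate, read 9.30, 9.47 and 9.37 with oil and 9.18, 9.31 and 9.38 with progesterone. The groups overlapped, and the SD was 0.0854 with oil and 0.101 with progesterone. The log2 change was -0.09 ± 0.0973 (SE, 95% confidence interval -0.32 to 0.14, limma adjusted p = 0.643), and that of its other probe set was -0.13 (adjusted p = 0.596). The interval corresponds to a level with progesterone between 0.802 and 1.10 times that with oil. Stat6 is activated by phosphorylation, which an array does not measure.

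The rest of the pathway was described with 8 lists holding 118 measured genes. Of these 3 were higher and 9 lower, or 10.2% in all against 11.7% of all genes tested, and the median log2 change was -0.02, as over all genes. The replicate block gave 8 higher genes and 9 lower ones, beside 7.6% and 8.49% of all genes. Of 4 Janus kinases, 1 was lower and 0 were higher. Tyk2, a kinase bound by Il13ra1, had a mean of 7.80 ± 0.0603 with oil and 7.48 ± 0.0252 with progesterone, a log2 change of -0.33 (SD, n = 3 per group, limma adjusted p = 0.0485). Its adjusted p was 0.0612 with the replicate block, the call ended in each of the 6 fits without 1 array, and its other probe set did not pass. Jak2 had a log2 change of -0.54 (adjusted p = 0.0871), and Jak1, the kinase bound by Il4ra, one of -0.05 (adjusted p = 0.892). The common gamma chain Il2rg was not analysed here.

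Of 18 adaptors and inhibitors of the pathway, 1 was lower and 0 were higher, or 5.56% beside 11.7% of all genes. The difference in share was not tested, and the median log2 change was 0.14. Irs2, the insulin receptor substrate that interleukin 4 and insulin receptors both use, read 8.13, 8.64 and 7.74 with oil and 6.49, 6.88 and 6.74 with progesterone. The groups did not overlap, and Irs2 was 2.76-fold lower (log2 change -1.47 ± 0.227 SE, limma adjusted p = 0.01), and it passed again in all 6 fits that left out an array. Irs1, its relative, had a log2 change of -0.54 (adjusted p = 0.0671, and 0.0143 with the replicate block). Socs1, a feedback inhibitor of Janus kinases, had one of 0.45 (adjusted p = 0.0687, and 0.0396 with the block). These last 2 genes were named for their blocked values after those were seen.

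Of 33 measured genes that Stat6 is known to drive in macrophages, epithelia and B cells, 1 was higher, 1 was lower and 31 did not pass. That is 6.06% beside 11.7% of all genes, a difference that was not tested, and the median log2 change was -0.02. The replicate block gave 2 higher and 1 lower. Spdef, a transcription factor of secretory epithelium, read 4.22, 4.33 and 4.19 with oil and 5.30, 4.97 and 5.24 with progesterone. That is 1.90-fold higher with no overlap (log2 change 0.92 ± 0.114 SE, limma adjusted p = 0.00529). Bcl6, a repressor known from germinal centre B cells, was 1.52-fold lower (adjusted p = 0.0335), and it passed again in 1 of the 6 fits that left out an array.

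The other genes of that list did not pass. Arg1, arginase of alternatively activated macrophages, had a log2 change of -0.67 (adjusted p = 0.57), and Mrc1, the macrophage mannose receptor, one of 0.16 (adjusted p = 0.886). The chemokine Ccl8 had the largest change of the list, 1.41 with an SE of 0.997 (adjusted p = 0.449, and 0.0268 with the replicate block). Slc26a4, an anion exchanger, was at 3.77, 4 and 8.81 on oil replicates 1 to 3 and at 3.82, 3.73 and 8.14 on progesterone replicates 1 to 3, high on the arrays numbered 3.

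Of 21 type 2 cytokines and alarmins with their receptors, 1 was lower and 0 were higher, or 4.76% beside 11.7% of all genes. The difference in share was not tested, and the median log2 change was -0.09. Tslp, an epithelial alarmin that promotes type 2 responses, read 3.89, 4.17 and 4.48 with oil and 3.47, 3.71 and 3.37 with progesterone, 1.58-fold lower (log2 change -0.66 ± 0.168 SE, limma adjusted p = 0.0467). These levels are near background, and Tslp passed again in 1 of the 6 fits that left out an array. Il5, the eosinophil cytokine encoded near Il13, was at background, at 3.30 and 3.33 on average. Il33, another alarmin, had a log2 change of -0.13 (adjusted p = 0.938). The receptor Il1rl1 was not analysed here.

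Of 8 genes of the Il13ra2 ligand Chil1 and the TGF-beta system, 0 passed in limma, and 1 had an unadjusted p under 0.05. Over all genes, 11.7% passed, and 4730 of 18193 had an unadjusted p under 0.05. Chil1, a chitinase-like protein reported to bind Il13ra2, was at 4.24, 4.22 and 8.34 on oil replicates 1 to 3 and at 3.91, 5.08 and 8.77 on progesterone replicates 1 to 3, again high on the arrays numbered 3. Tgfb3 had the largest change of this list, -0.46 (adjusted p = 0.149). Of 5 other STAT genes 0 passed in limma, and 2 had an unadjusted p under 0.05. Stat4, which interleukin 12 activates, had a log2 change of 0.66 (adjusted p = 0.168, and 0.00991 with the replicate block).

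Of 18 genes listed as other class I cytokine receptors, 1 was higher (Il20ra, which is of class II) and 4 were lower. That is 27.8% of the list beside 11.7% of all genes, a difference that was not tested. Log2 changes in the list lay between -1.30 and 0.64, against 3.70 for Il13ra2. The replicate block gave 3 higher and 4 lower, adding Il15ra, a chain of the interleukin 15 receptor (log2 change 0.47, blocked adjusted p = 0.0485), and Csf3r, the receptor of granulocyte colony-stimulating factor (0.51, blocked adjusted p = 0.0327). Lifr, the receptor of leukaemia inhibitory factor, was 2.46-fold lower (log2 change -1.30, limma adjusted p = 0.00677). Ghr, the growth hormone receptor, was 1.74-fold lower (adjusted p = 0.00706), and Lepr, the leptin receptor, 1.57-fold lower (adjusted p = 0.0247). Il20ra, a chain of the interleukin 20 receptors grouped here with class I though it belongs to class II, was 1.56-fold higher (adjusted p = 0.0113). The fourth lower gene was Il6st, the signalling chain shared by the interleukin 6 family (log2 change -0.55, adjusted p = 0.0296). Of the 3 probe sets of Lifr and the 4 of Il6st, only the one used passed. Lepr passed again in 2 and Il6st in 1 of the 6 fits that left out an array.

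**Figure D4:**
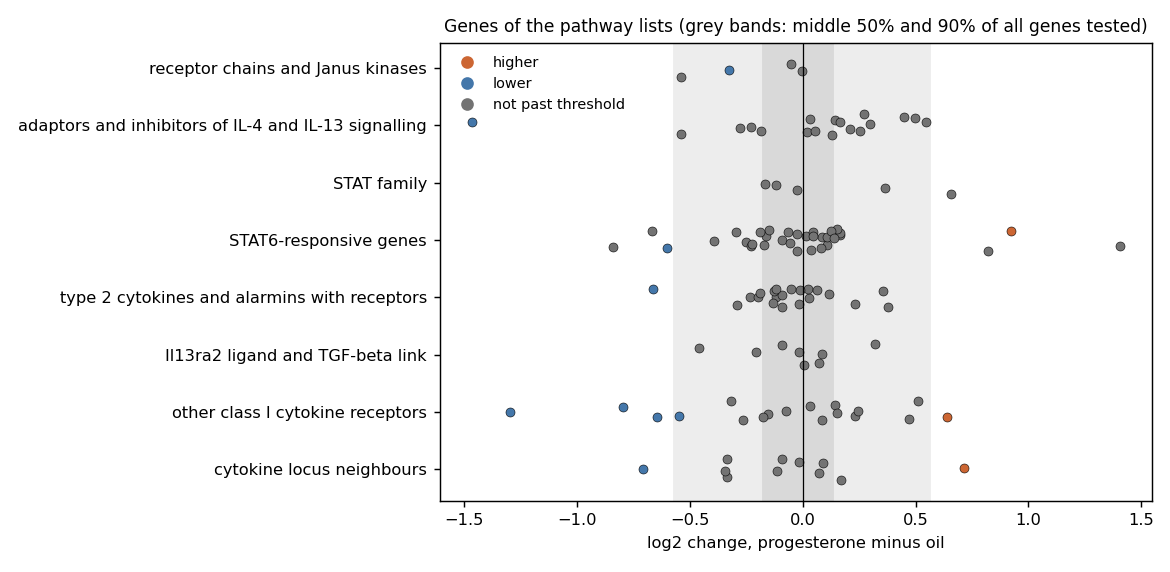
Log2 change from oil to progesterone (horizontal axis) of 118 genes in 8 lists around the pathway, coloured by whether they passed the test, over grey bands from the 25% to the 75% and from the 5% to the 95% quantile of all genes tested. The points lie between -1.47 (Irs2) and 1.41 (Ccl8, not past the threshold), and Il13ra2, at 3.70, is not in these lists.

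The genes around the cytokine and receptor genes were described as well. Of 11 genes near Il4 and Il13, taken from a chosen list, 1 was higher and 1 was lower. That is 18.2% beside 11.7% of all genes, a difference that was not tested. Kif3a, a kinesin of the primary cilium and the gene next to Il4, was 1.64-fold lower (log2 change -0.71, limma adjusted p = 0.00909). Uqcrq, a subunit of respiratory complex III, was 1.64-fold higher (adjusted p = 0.0142), and Uqcrq passed again in 3 of the 6 fits that left out an array. For each of these 2 genes, 4 probe sets exist, and another passed in the same direction for Kif3a and none for Uqcrq. Neighbours were also taken in RefSeq order, as the 3 nearest measured genes on each side of a gene. Of the 6 such genes of Il4, and of the 6 of Il13, 0 were higher and 1, Kif3a, was lower. Of those of Il13ra2, 0 passed in limma, and 4 of these 6 had an unadjusted p under 0.05. Over all genes, 4730 of 18193 had an unadjusted p under 0.05, and the difference in share was not tested. Htr2c, the gene before it, was at background in both groups, with means of 3.10 and 3.33, so its probe set cannot show whether it changed. Lrch2, the gene after it, had a log2 change of 0.45 (adjusted p = 0.0688), against 3.70 for Il13ra2. Some nearest measured genes are far off. Between Il13ra2 and Tmem29 or Apex2 lie 15 and 16 protein-coding genes, and between Il13ra1 and Klhl13 or Wdr44 lie 53 and 52. Klhl13 had a log2 change of -0.41 (limma adjusted p = 0.0579, and 0.0317 with the replicate block). Of the 6 nearest measured genes of Il13ra1, 0 passed in the main limma fit, and 1 had an unadjusted p under 0.05. Of those of Il4ra 1 was lower, Nsmce1, the gene before it and a subunit of the SMC5-SMC6 complex, with a log2 change of -0.58 (adjusted p = 0.0172). Of those of Stat6, Shmt2, a mitochondrial enzyme of serine metabolism, was higher (0.72, adjusted p = 0.00737), and Nemp1, a protein of the nuclear envelope, was lower (-0.43, adjusted p = 0.0276). In the 6 fits that left out an array, Nsmce1 passed again in 4, Shmt2 in 6 and Nemp1 in 1. The calls near Il4, Il13, Il4ra and Stat6 are to be read beside the 11.7% of all genes that passed.

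The 5 genes whose profile over the 6 arrays was nearest to that of Il13ra2 were Hsd11b2, Fam107a, Map7d2, Cyp26a1 and Npl, in that order. Likeness was measured as the Euclidean distance between log2 values after each gene's mean was subtracted, over 6 arrays. The distance was 0.85 for Hsd11b2, 1.27 for Fam107a and 1.54 for Npl. Hsd11b2, the enzyme that inactivates corticosterone, read 8.71, 8.41 and 8.08 with oil and 11.37, 11.81 and 11.59 with progesterone. Its lowest and highest array were those of Il13ra2, oil replicate 3 and progesterone replicate 2, and its largest departure from the Il13ra2 profile on any array was 0.593. Cyp26a1, which clears retinoic acid, read 10.71, 9.90 and 9.28 on progesterone replicates 1 to 3, so it was highest on the array where Il13ra2 was lowest of its group. Npl, a lyase of sialic acid breakdown, read 11.69, 11.58 and 10.90 on the same arrays.

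**Figure D5:**
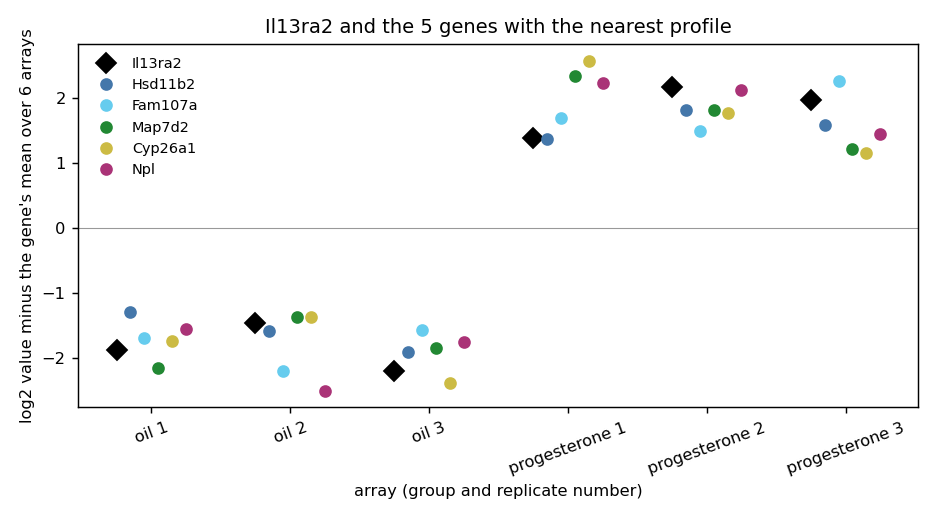
Log2 value minus the gene's own mean over the 6 arrays (vertical axis) for Il13ra2 and the 5 genes with the nearest profile, on each oil and progesterone array (horizontal axis). All 6 genes lie below 0 on the oil arrays and above 0 on the progesterone arrays, which choosing the 5 by nearness to Il13ra2 favours. Hsd11b2 stays within 0.593 of Il13ra2 on each array.

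Promoter windows were found for 4 of these 5 genes. The inverted repeat for steroid receptors, held by 0.475% of all windows, was present in 2 of the 3 windows of Fam107a, as GGACATGGTGTTC, and in 1 of the 2 windows of Map7d2, as GGACACAGTGTTC. In Fam107a it lay at positions -118 to -106 from an annotated start, in a pair of windows that overlap and so hold the same match, and in Map7d2 11 to 23 bases after one. No window of Cyp26a1 or Npl held any of the 5 motifs. These genes were chosen for their profile, so the matches are a description.

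Markers of the cells that make interleukin 4 and 13 lay partly at background. Of 10 mast cell markers, 6 were above the highest TrpnX level on every array and 2, Mcpt2 and Fcer1a, were at or below it on every array. The mean of the mast cell list ranged from 4.07 to 4.70 with oil and from 4.15 to 4.58 with progesterone. The eosinophil list (4 measured) ranged from 3.34 to 3.44 with oil and from 3.38 to 3.66 with progesterone, with Ccr3 at background on every array. The basophil list (2 measured) ranged from 3.17 to 3.44 and from 3.29 to 3.44, with Cd200r3 at background on every array. T cell and innate lymphoid markers (11 measured) ranged from 5.25 to 5.87 and from 5.06 to 5.71. Rora, a member of that list that stromal cells also express, was lower.

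Over the 14 marker lists, 95 markers were counted, of which 5 were higher and 3 lower, beside 11.7% of all genes past the threshold. No reading of cell composition is drawn from these counts. Beside Rora the markers were Wnt7a (lower) and Cldn3 (higher) of the epithelium, Hand2, Hoxa10 and Hoxa11 (higher) and Lum (lower) of the stroma, and Ttr (higher) of the liver list. The epithelial list ranged from 9.94 to 10.07 with oil and from 9.36 to 9.96 with progesterone, and the stromal list from 11.17 to 11.35 and from 11.28 to 11.57. The neutrophil list ranged from 4.51 to 7.78 and from 4.45 to 7.98, with its high arrays in both groups. For none of these lists was its part in the levels of the 6 genes tested.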

How the data were processed

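Total RNA of mouse uterus was labelled as biotinylated cRNA and measured on 6 one-colour arrays, per the labels' protocols. The authors deposited log2 expression values per probe set. RMA and Partek 6.6 are named per the submitters' processing notes, with further settings not given in the sources used here. Scanner files and detection calls were not used here. Of 45101 probe sets, 34945 had 1 gene symbol, 932 several, 9160 none here and 64 were controls, with names from the platform annotation. RefSeq gave names, gene order and promoter sequences, the latter for all 6 genes.

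Groups came from the sample titles. Progesterone was set against oil in R 4.3.3 by limma 3.58.1 (lmFit, eBayes, no filter, no block), two-sided, with Benjamini-Hochberg adjustment over 18193 genes and a threshold of 0.05. The procedure was tested on simulated data. The genes, lists and tests were chosen with earlier results of these data known. Named genes were the 6 genes, up to 4 called genes per pathway list (with fewer than 2 called, the largest change), and the 5 nearest profiles of Il13ra2 (leaving out clone and model names), 25 in all. Others were named after their values were seen.

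The titles number the replicates in both groups, and give no meaning for the number. Across genes, same-numbered arrays had deviations from their group means that correlated at 0.523, 0.141 and 0.636. All were above 0.1, which by a fixed rule was taken as a hint of pairing. The pairing stays uncertain, since oil replicate 2 correlated better with progesterone replicate 1 (0.322). The main fit was planned without a block and treats the arrays as unpaired, and calls with the replicate block are given as an alternative. The number of arrays limits the precision. Alternatives were other normalizations, an offset of 32, filters on dim genes, other uses of probe sets, other eBayes settings, the replicate block, each array left out and stricter thresholds.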

Additional observations from a re-analysis of the deposited data

How the results depend on the processing

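Il13ra2 kept its direction under all 21 alternatives and its call under 20, with log2 changes from 2.93 (offset of 32) to 3.92. The exception, added after seeing the data, left out the arrays with S100a8 above 11 and so compared 2 oil arrays with 1 progesterone array, assumed to vary as the oil arrays do: the log2 change was 3.06 (adjusted p = 0.147), and 0 of the 6 genes and 0 of all genes were higher and 0 lower in limma, with 3379 genes at an unadjusted p under 0.05. Il4ra passed as lower, making 1 lower gene of 6 instead of 0, with the replicate block (log2 change -0.65, adjusted p = 0.00948), with robust eBayes (-0.65, 0.0498) and without the lowest 50% of genes by level (-0.65, 0.0348). Its adjusted p under all alternatives ran from 0.00948 to 0.867. The block changed the call of 3 of the 25 named genes (Il4ra, Tyk2 and Stat4). Outside those 25, the block added calls that the main fit did not give, Irs1 as lower and Socs1, Ccl8, Il15ra and Csf3r as higher. Irs1 and Socs1 also passed without the block when progesterone replicate 1 was left out (limma adjusted p = 0.04 and 0.0371). Il13ra1 and Stat6 passed under no alternative and kept their sign, and the 3 receptor differences kept theirs wherever they were computed. The changes of Il4 and Il13, near 0, turned sign under some alternatives. Without 1 array they ranged from -0.043 to 0.13 for Il4 and from -0.038 to 0.037 for Il13. Without both arrays numbered 3, also added later, both were -0.08, and without the arrays with S100a8 above 11 Il13 was -0.075 (adjusted p = 0.741). Il4 and Il13 gave no value without the lowest 25% or 50% of genes.

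Counts over all genes were 1077 higher and 1060 lower. They were 348 and 245 in the unmoderated model, 328 and 243 at an adjusted p under 0.01, 674 and 642 with a minimum of 1.5-fold, 586 and 441 without both arrays numbered 3, and 1714 higher when probe sets were counted. Without 1 array they ranged from 379 to 848 and from 278 to 907, moving by over 1.5 times for both directions without oil replicate 1 or 2 or progesterone replicate 2, and for lower genes without oil or progesterone replicate 3. With the replicate block they were 1382 and 1545. Of 336 list counts under alternatives, 261 stayed within 1.5 times and 75 did not. The number of arrays and the dim signal of Il4 and Il13 limit what can be seen.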

Other observations

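Ccr4, a chemokine receptor in the list of genes that Stat6 is known to drive, read 3.36, 3.57 and 3.23 on oil replicates 1 to 3 and 3.58, 3.22 and 3.47 on progesterone replicates 1 to 3, while Il4 read 3.35, 3.57, 3.23, 3.54, 3.22 and 3.49 on the same arrays, and both genes are near background.

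Slc26a4 and Chil1 were both above 8 on the arrays numbered 3 of each group and at 5.08 or lower on the other 4 arrays.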
